A study of Mus musculus with 6 samples.

Results

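The 2 libraries numbered replicate 1, of the 6 from 4T1 cells, 1 with the control hairpin shCTL and 1 with the HSF1-directed hairpin shHSF1, are described here against replicates 2 and 3 of the same hairpins, 4 libraries. They were chosen from measured values, since both lay apart from the other 4 on the first principal component of these expression values. The contrast that chose them is therefore described with values, standard errors and counts, and carries no test. 4T1 is an established mouse mammary adenocarcinoma line, and all 6 libraries came from cells kept in DMEM with 10% fetal bovine serum at 21% oxygen and 5% carbon dioxide. Cells of both groups expressed a hairpin, so no library stands for unmodified 4T1 cells, and the hairpin sequences or clones behind each group were not given in the sources used here. Nor do the labels say whether replicates were separate cultures, and they name no difference in density, passage or harvest, so "growth state" is a reading of the genes and not a label.

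Cells that divide copy their DNA with genes switched on by E2F factors at the G1/S boundary, and enter mitosis with genes held down by the DREAM complex until late in the cycle. Growth also draws on MYC, which raises ribosome production, and on SREBP2, which raises cholesterol synthesis. When nutrients or growth signals run low, TFEB and its relatives raise lysosome genes, FOXO factors raise catabolic and arrest genes, and ATF4 raises amino acid supply.

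Hsf1, the target of the hairpin and the master regulator of the heat shock response, measured 18.4, 20.3 and 20.1 RPKM with shCTL and 23.2, 13.8 and 15.4 RPKM with shHSF1, in the order replicate 1, 2 and 3, which is used for all values below. RPKM is a read count scaled by gene length and library size. Replicates 2 and 3 with shHSF1 lay below every shCTL library, whereas the library labelled shHSF1 replicate 1 lay above all of them. Its Hsf1 level thus goes against its label, and every direction that rests on it is a direction of the library so labelled.

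On the first principal component, which held 53.8% of the variance of log2(RPKM + 0.5), shCTL replicate 1 scored -47.0 and the library labelled shHSF1 replicate 1 scored -38.5. The nearest of the other 4 libraries scored 13.4 and the farthest 30.7. Of the variance over 11386 genes, replicate 1 against replicates 2 and 3 took 52.4%, the hairpin 25.6%, the difference of the replicate 1 gap between hairpins 13.9%, and replicates 2 and 3 within a hairpin 8.20%. Read totals were 24628758 and 24485872 in replicate 1, within the range of 23750025 to 36903175 over all libraries. Genes with at least 1 read numbered 14623 and 15319 in replicate 1 and 14028 to 14639 in the others. The defining markers of other cell types were at or near 0: 8 of 10 immune, 6 of 6 endothelial, 6 of 6 erythroid, 6 of 8 fibroblast and 3 of 4 adipocyte markers stayed under 0.5 RPKM in every library. The epithelial markers summed to 1622 to 2685 RPKM, led by the keratins Krt18 and Krt8. Of these 12 markers, 2 stayed under 0.5 RPKM in every library. They were Krt5, a basal keratin, at 0 throughout, and Cldn7, at 0.203 RPKM or less. Esrp1 and Krt14 were also low, at no more than 1.31 and 1.95 RPKM. The summed immune markers read 19.6 and 23.5 RPKM in replicate 1 against 4.13 to 14.8 RPKM elsewhere, and nearly all of that was the lysosomal protein gene Cd68. The summed fibroblast markers read 37.8 and 20.1 RPKM in replicate 1 against 10.1 to 22.9 RPKM elsewhere, nearly all from Pdgfra.

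The replicate 1 gap is the log2(RPKM + 0.5) value of replicate 1 minus the mean of replicates 2 and 3 of the same hairpin. Its median size over genes was 0.39 with shCTL and 0.37 with shHSF1, against a median distance between replicates 2 and 3 of 0.12 and 0.14. Genes with a gap of at least 2-fold numbered 1396 with shCTL and 1348 with shHSF1, while replicates 2 and 3 differed by that much in 128 and 71 genes. The gap had the same sign with both hairpins in 8279 of 11386 genes, and across genes the 2 sets of gaps correlated with a Pearson r of 0.58 and a Spearman coefficient of 0.59, a description over genes that share libraries. A gap of 2-fold or more in opposite directions was found in 9 genes that were higher with shCTL and lower with shHSF1, and in 32 genes with the reverse order.

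**Figure D1:**
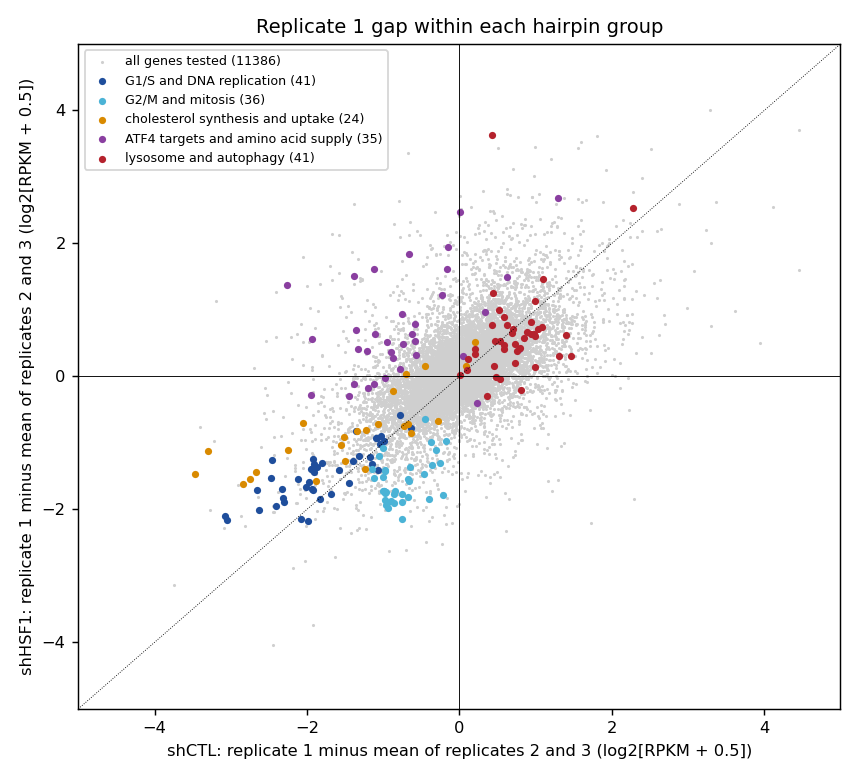
Each point is a gene, with its replicate 1 gap in shCTL on the x axis and in shHSF1 on the y axis, both as differences of log2(RPKM + 0.5). All 41 G1/S and 36 G2/M genes lie in the lower left, the 41 lysosome genes lie mostly in the upper right, and most ATF4 genes lie left of the vertical line and above the horizontal line.

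A gene was counted as apart when both gaps reached 2-fold in the same direction and both replicate 1 libraries lay outside the range of the other 4. The gap over both hairpins is the replicate 1 term of a fit with hairpin as covariate, which averages the 2 gaps; a member called higher or lower below is so by this average. By the rule 243 genes were higher in replicate 1, 2.13% of the 11386 tested, and 243 were lower, also 2.13%. Those 243 higher genes were 33.7% of the genes that were at least 2-fold higher, and above both other libraries, within shCTL, and 29.9% of those within shHSF1. For the lower genes these shares were 36.6% and 45.5%. The even split depends on scaling: 186 genes were higher and 318 lower after median-of-ratios scaling, a share of 36.9% higher, and 172 and 297 after quantile normalization, a share of 36.7%. Without the 2-fold condition, both replicate 1 libraries lay above the other 4 in 27.9% of genes and below them in 18.6%. By the averaged gap 57.2% of genes were higher and 42.8% lower, and 4866 of the 11386 genes were above 0 with each hairpin and 3413 below 0 with each. Since the libraries were chosen on this contrast, these counts describe it and test nothing. A further 124 genes reached 0.5 RPKM in both replicate 1 libraries and in no other, and 33 in the other 4 and in neither replicate 1 library. The 124 could not pass the filter of 0.5 RPKM in 3 libraries and are not among the genes counted.

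DNA replication genes gave the largest shared gap of the 30 gene lists described. All 41 tested members of the G1/S and DNA replication list were lower in replicate 1 with each hairpin. All 41 lay below the range of the other 4 libraries, against 18.6% of all genes. Of the members, 34 passed the 2-fold rule above, 82.9% against 2.13% of all genes. Their median gap was -1.67 on the log2 scale, -1.91 with shCTL and -1.41 with shHSF1, where all genes had a median of 0.09. Pcna, the sliding clamp of DNA polymerase, measured 71.4, 255 and 284 RPKM with shCTL and 96.8, 232 and 253 RPKM with shHSF1. Mcm6, a subunit of the replicative helicase, measured 58.7, 215 and 242 RPKM with shCTL and 79.6, 199 and 221 RPKM with shHSF1. Both genes were lowest in the replicate 1 libraries, with no overlap, and Mcm6 was 3.17-fold lower there by mean RPKM. Mcm7, another helicase subunit, measured 50.8, 121 and 142 RPKM with shCTL and 79.1, 138 and 143 RPKM with shHSF1, a smaller gap of -1.09 ± 0.14 (SE) in the fit with hairpin as covariate. The members ranged from a gap of -2.60 for Cdc6, which loads the helicase onto origins, to -0.68 for Cdt1, its partner in loading.

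Cdc6 measured 1.16, 12.2 and 14.2 RPKM with shCTL and 3.62, 16.5 and 19.3 RPKM with shHSF1, and was 6.51-fold lower in replicate 1. Ccne2, which encodes the S-phase cyclin E2, measured 1.15, 12.04 and 14.98 RPKM with shCTL and 1.78, 7.48 and 11.5 RPKM with shHSF1, and was 7.87-fold lower. Tyms, the thymidylate synthase that makes dTMP, measured 4.81, 19.6 and 24.6 RPKM with shCTL and 5.899, 26.1 and 29.7 RPKM with shHSF1. In each of these 3 genes both replicate 1 libraries were below every other library. Rrm2, the small subunit of ribonucleotide reductase, measured 33.6, 121 and 149.9 RPKM with shCTL and 26.6, 108 and 139 RPKM with shHSF1, and Uhrf1, which maintains DNA methylation behind the fork, measured 14.3, 88.5 and 93.1 RPKM with shCTL and 19.9, 76.05 and 88.2 RPKM with shHSF1. Exo1, a repair exonuclease, was 5.54-fold lower. Mybl2, an S-phase transcription factor, was 5.08-fold lower. E2f7, a repressor of E2F targets, was 5.16-fold lower. The row 2810417H13Rik, which encodes a PCNA-associated factor, measured 14.2, 55.8 and 63.1 RPKM with shCTL and 8.71, 56.8 and 68.6 RPKM with shHSF1.

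The mitotic genes were lower too, with a smaller gap in shCTL than in the library labelled shHSF1 replicate 1. All 36 tested members of the G2/M and mitosis list were lower in replicate 1 with each hairpin. Below the range of the other 4 lay 35, 97.2% against 18.6% of all genes. The 2-fold rule was passed by 5, 13.9% against 2.13% of all genes, a smaller share than in the G1/S list. The median gap was -0.86 with shCTL and -1.72 with shHSF1. Top2a, which untangles sister DNA, measured 126, 246 and 256 RPKM with shCTL and 100.3, 340.1 and 322 RPKM with shHSF1. Ube2c, a ubiquitin carrier of the anaphase-promoting complex, measured 111, 184 and 171 RPKM with shCTL and 59.1, 175 and 172 RPKM with shHSF1. Replicate 1 was lowest in both genes, and the library labelled shHSF1 replicate 1 lay below shCTL replicate 1. Cdk1, the mitotic kinase, was an exception to that order, at 31.7, 71.99 and 70.04 RPKM with shCTL and 32.4, 86.8 and 85.3 RPKM with shHSF1. Anln, the contractile ring protein anillin, measured 102, 224 and 202 RPKM with shCTL and 76.4, 184 and 167 RPKM with shHSF1. Mki67, the proliferation antigen Ki-67, measured 64.3, 156 and 126 RPKM with shCTL and 33.8, 100.3 and 97.8 RPKM with shHSF1.

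The upstream sequences of 4 of these genes show the letter motifs known from each class, and are printed because the 2 classes of cell cycle gene share a direction but not a size. They are the RefSeq promoters on the mouse build GRCm38.p6, cut to the stretch around the motifs, 5′ to 3′ on the gene's own strand. Capitals mark TTTNGCGC (E2F site) in Mcm6 and TTTGAA (the cell cycle homology region, CHR) in the other 3, on either strand, so that CHR can also read TTCAAA.
Mcm6, chr1:128359706-128359855, minus strand: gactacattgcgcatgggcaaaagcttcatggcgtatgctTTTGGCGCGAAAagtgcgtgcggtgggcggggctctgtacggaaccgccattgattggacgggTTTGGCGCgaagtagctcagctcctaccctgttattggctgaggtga
Cdk1, chr10:69352913-69353023, minus strand: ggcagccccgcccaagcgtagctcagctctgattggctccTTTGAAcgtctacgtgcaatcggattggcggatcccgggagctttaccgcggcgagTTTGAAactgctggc
Top2a, chr11:99024190-99024408, minus strand: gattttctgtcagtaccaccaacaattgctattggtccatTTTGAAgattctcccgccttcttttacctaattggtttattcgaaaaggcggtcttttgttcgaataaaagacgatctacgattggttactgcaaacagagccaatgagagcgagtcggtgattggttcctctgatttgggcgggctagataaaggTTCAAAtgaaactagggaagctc
Ube2c, chr2:164769860-164769928, plus strand: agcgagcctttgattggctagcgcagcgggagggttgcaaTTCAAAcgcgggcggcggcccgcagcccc
The first capital run of Mcm6 holds 2 overlapping matches, 1 on each strand. Over the promoter window of 250 bases before to 50 after the start, 22 of 30 G2/M promoters held CHR, 73.3%, against 11.3% of the 8502 promoters matched to tested genes. The E2F letters stood in 8 of 34 G1/S promoters, 23.5%, against 2.71% of all. Among the 181 promoters of genes lower in replicate 1, 25.4% held CHR and 9.39% the E2F letters, and among the 163 promoters of higher genes 7.36% and 0.613%. CCAAT was found in 51.4% of promoters of lower genes, 39.3% of higher genes and 39.0% of all. A match is a string of letters and no measure of binding.

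**Figure D2:**
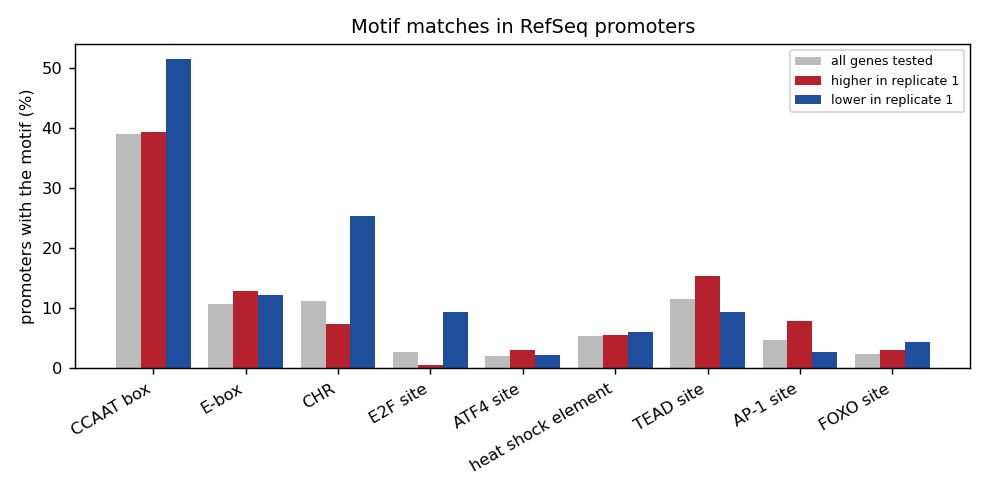
Bars give the percentage of promoters, from 0, that hold each motif on either strand among all tested genes with a promoter, genes higher in replicate 1 and genes lower in replicate 1. The blue bar of CHR reaches 25.4% and that of the E2F site 9.39%, against grey bars of 11.3% and 2.71%.

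Regulators of the cycle did not share 1 direction. The list of D cyclins, CDK inhibitors and quiescence genes had 10 members higher and 9 lower, with a median of 0.01 that turned to -0.07 after median-of-ratios scaling. Ccnd1, which encodes cyclin D1, measured 298, 512 and 675 RPKM with shCTL and 248, 462 and 528 RPKM with shHSF1, and was 1.99-fold lower in replicate 1. Rb1, the retinoblastoma repressor of E2F, measured 7.97, 4.95 and 4.204 RPKM with shCTL and 8.99, 5.16 and 3.92 RPKM with shHSF1, above all other libraries in both replicate 1 libraries. Btg1, an antiproliferative gene, measured 82.6, 70.4 and 62.6 RPKM with shCTL and 111, 62.8 and 55.4 RPKM with shHSF1, also without overlap. Cdk4, the partner of D cyclins, measured 206, 263 and 261 RPKM with shCTL and 252, 261 and 269 RPKM with shHSF1, a gap of -0.21 ± 0.09 (SE).

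Cholesterol genes were the third group with a large shared gap. Of 24 tested members of the cholesterol synthesis and uptake list, 22 were lower in replicate 1, 20 of them with each hairpin. Below the other 4 libraries lay 19, 79.2% against 18.6% of all genes. The 2-fold rule was passed by 10, 41.7% against 2.13% of all genes. The median was -1.14, -1.29 with shCTL and -0.83 with shHSF1. Cyp51, the lanosterol demethylase, measured 2.71, 20.9 and 23.97 RPKM with shCTL and 6.37, 16.01 and 26.6 RPKM with shHSF1, and was 4.82-fold lower. Fdps, which makes farnesyl diphosphate, measured 8.09, 46.8 and 62.3 RPKM with shCTL and 19.2, 42.9 and 65.1 RPKM with shHSF1. Both genes were lower in shCTL replicate 1 than in the library labelled shHSF1 replicate 1. Insig1, which retains the SREBP escort in the endoplasmic reticulum, had the highest gap of the list, 0.36 ± 0.12 (SE).

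Fatty acid synthesis genes followed less evenly, with 11 of 13 lower, 10 of them with each hairpin. Their median was -0.62 with shCTL and -0.27 with shHSF1, so the value depends on which replicate 1 library is used. Fads2, the delta-6 desaturase, measured 16.2, 68.3 and 81.1 RPKM with shCTL and 21.7, 48.00 and 71.9 RPKM with shHSF1, and was lowest in both replicate 1 libraries. Fasn, the fatty acid synthase, measured 28.05, 72.7 and 86.8 RPKM with shCTL and 55.5, 56.8 and 79.5 RPKM with shHSF1, and the library labelled shHSF1 replicate 1 nearly equalled shHSF1 replicate 2. Fabp5, a fatty acid carrier outside that list, measured 7.07, 66.5 and 78.7 RPKM with shCTL and 18.1, 63.4 and 88.1 RPKM with shHSF1, and was 5.897-fold lower.

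Ribosome production genes were lower by the averaged gap in 35 of 35 tested members, but with each hairpin in only 26 of 35. Their median was -1.29 with shCTL and -0.31 with shHSF1. None passed the 2-fold rule as lower, against 2.13% of all genes, and 19 lay below the other 4 libraries, 54.3% against 18.6%. Ncl, the nucleolar protein nucleolin, measured 228, 359.9 and 397 RPKM with shCTL and 294, 313 and 419 RPKM with shHSF1. Odc1, the MYC target that starts polyamine synthesis, measured 96.3, 218 and 354 RPKM with shCTL and 233, 396 and 549 RPKM with shHSF1. Npm1, the nucleolar chaperone nucleophosmin and the most abundant member, had a gap of -0.01 ± 0.1 (SE). The cytosolic ribosomal protein genes differed in direction, with 35 of 38 higher in replicate 1, 32 of them with each hairpin, and a median of 0.29, or 0.19 after median-of-ratios scaling. Rpl7, of the large subunit, measured 1879, 1695 and 1676 RPKM with shCTL and 1999, 1679.9 and 1896 RPKM with shHSF1, and Rpl4 had a gap of 0.05 ± 0.09 (SE).

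Glycolysis as a list had no shared direction, with 9 of 20 higher and 11 lower, and Ldha and Pgam1 passed the 2-fold rule as lower. Ldha, which turns pyruvate into lactate, measured 174, 477 and 546 RPKM with shCTL and 184, 502 and 499 RPKM with shHSF1, and was 2.83-fold lower in replicate 1. Pkm, the pyruvate kinase, measured 624, 1103 and 1128 RPKM with shCTL and 482, 1081 and 1049.5 RPKM with shHSF1. Gapdh measured 572, 809 and 825 RPKM with shCTL and 475, 707 and 658 RPKM with shHSF1, below all others in both replicate 1 libraries. Hypoxia genes were mixed: Higd1a, a mitochondrial survival protein, measured 5.29, 11.7 and 13.3 RPKM with shCTL and 6.63, 13.4 and 15.8 RPKM with shHSF1, while Vegfa, the angiogenic factor, measured 27.3, 9.06 and 16.6 RPKM with shCTL and 48.4, 13.9 and 12.9 RPKM with shHSF1. Respiratory chain genes were lower in 30 of 42 members, 22 of them with each hairpin, with a median of only -0.15.

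**Figure D3:**
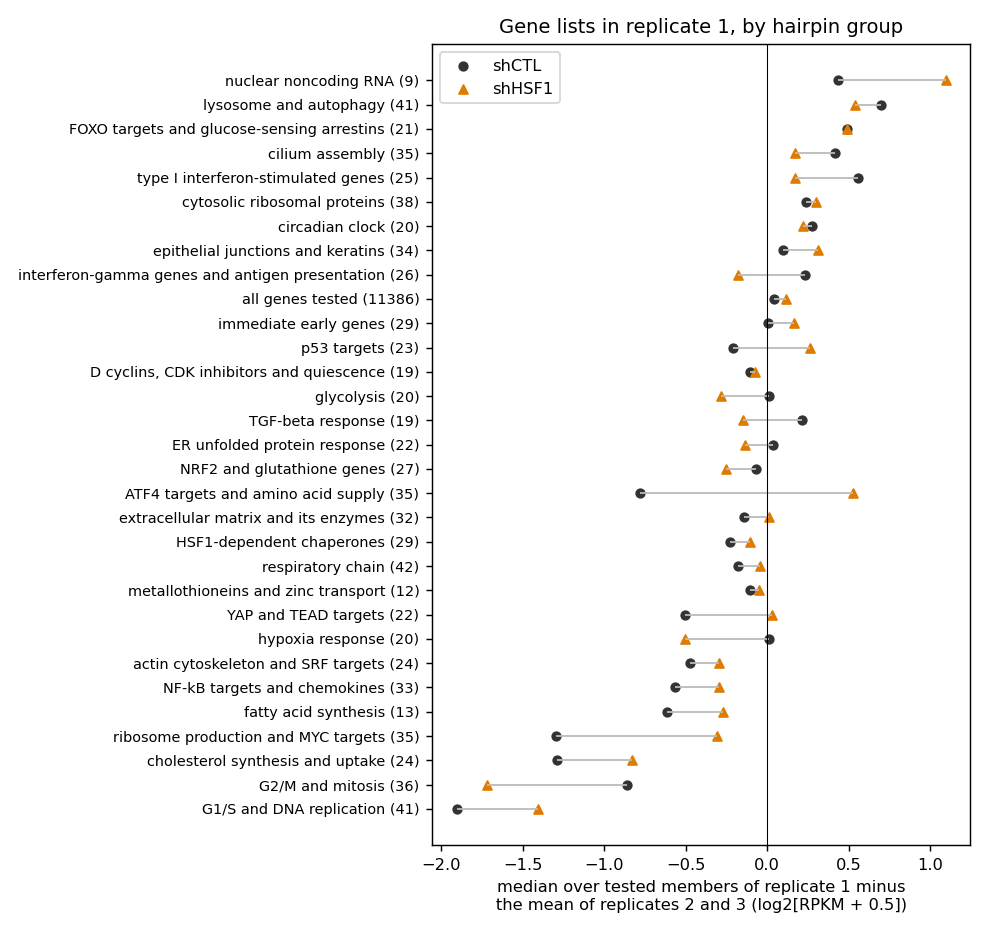
Median replicate 1 gap, in log2 units, over the tested members of each of 30 gene lists and over all genes, with shCTL as circles and shHSF1 as triangles; the number tested is in brackets. Lists are ordered by their median over both hairpins, with G1/S at the bottom at -1.67 and nuclear noncoding RNA at the top at 0.79, and the ATF4 list has its circle at -0.78 and its triangle at 0.53.

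Lysosome and autophagy genes were higher in replicate 1. All 41 tested members of the list were higher by the averaged gap and 37 of them with each hairpin. Above the range of the other 4 libraries lay 31, 75.6% against 27.9% of all genes. The median was 0.67, or 0.57 after median-of-ratios scaling. The 2-fold rule was passed by 2, 4.88% against 2.13% of all genes, so the gap was broad and mostly small. Ctsl, the protease cathepsin L, measured 1583, 878 and 939 RPKM with shCTL and 1565, 1270.0 and 1059.5 RPKM with shHSF1. Sqstm1, the autophagy receptor p62, measured 475, 245 and 235 RPKM with shCTL and 440.4, 313 and 254 RPKM with shHSF1. Both replicate 1 libraries lay above the other 4 in both genes. Lamp1, a main protein of the lysosome membrane, measured 441, 386 and 379 RPKM with shCTL and 371, 289.5 and 297 RPKM with shHSF1, where shCTL replicates 2 and 3 overlapped with the library labelled shHSF1 replicate 1. Gpnmb, a glycoprotein induced with lysosome stress, measured 127, 25.7 and 25.7 RPKM with shCTL and 70.6, 14.03 and 9.904 RPKM with shHSF1, and was 5.24-fold higher. Neu1, the lysosomal sialidase, measured 7.06, 3.28 and 2.77 RPKM with shCTL and 6.96, 2.32 and 2.09 RPKM with shHSF1. The E-box CACGTG, which reads the same on both strands, stood in 10 of 32 lysosome promoters, 31.3%, against 10.7% of all. It was not particular to this list, at 6 of 27 ribosome production promoters, 22.2%, and 5 of 15 clock promoters, 33.3%. Genes higher and lower in replicate 1 by the 2-fold rule held it in 12.9% and 12.2% of promoters. The Lamp1 promoter holds the E-box 4 times in a short stretch just upstream of the start, in capitals here, on GRCm38.p6 from RefSeq.
Lamp1, chr8:13159060-13159160, plus strand: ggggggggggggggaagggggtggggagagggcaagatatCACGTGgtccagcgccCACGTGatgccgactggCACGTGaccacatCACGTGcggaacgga

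FOXO targets and glucose-sensing arrestins were higher in 18 of 21 members, 17 of them with each hairpin, with a median of 0.59. Both replicate 1 libraries lay above the other 4 in 9, 42.9% against 27.9% of all genes. Klf9, a Krüppel-like repressor of proliferation, measured 43.96, 20.3 and 19.8 RPKM with shCTL and 49.1, 27.4 and 15.7 RPKM with shHSF1. Sesn3, a sestrin that restrains mTORC1, measured 154, 44.04 and 27.5 RPKM with shCTL and 38.5, 35.1 and 21.1 RPKM with shHSF1, highest in shCTL replicate 1, with the library labelled shHSF1 replicate 1 inside the range of the other 4. Cited2, a transcriptional coregulator in the same list, went the other way at 23.5, 44.7 and 49.3 RPKM with shCTL and 56.04, 73.8 and 84.9 RPKM with shHSF1. Trp53inp1, a stress-induced autophagy and cell death gene in the p53 list, measured 9.58, 2.12 and 1.499 RPKM with shCTL and 7.18, 2.16 and 1.09 RPKM with shHSF1, and was 4.88-fold higher, although that list as a whole had 12 members higher and 11 lower.

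Nuclear noncoding RNAs were higher by the averaged gap in 9 of 9 members and with each hairpin in 7, by a median of 0.43 with shCTL and 1.1 with shHSF1. Malat1, a nuclear speckle RNA, measured 202, 112 and 77.7 RPKM with shCTL and 155, 31.9 and 38.05 RPKM with shHSF1. Neat1, the scaffold of paraspeckles, measured 21.7, 7.22 and 4.71 RPKM with shCTL and 66.1, 4.402 and 5.54 RPKM with shHSF1, and was 8.03-fold higher. The lowest replicate 1 value of each lay above the highest of the other 4. Gas5, a host RNA of small nucleolar RNAs that builds up in growth arrest, measured 104, 91.8 and 88.9 RPKM with shCTL and 321, 64.9 and 80.4 RPKM with shHSF1, with the gap almost all in the library labelled shHSF1 replicate 1. Cilium assembly genes were higher in 28 of 35 members, 80% against 57.2% of all genes. With each hairpin 23 were higher, 65.7% against 42.7% of all genes. Both replicate 1 libraries lay above the other 4 in 12, 34.3% against 27.9% of all genes, and none passed the 2-fold rule. The median was 0.41 with shCTL and 0.17 with shHSF1, where all genes had 0.04 and 0.12. Ift88, a subunit of the intraflagellar transport train, measured 8.28, 4.88 and 4.47 RPKM with shCTL and 9.51, 6.58 and 5.61 RPKM with shHSF1. Type I interferon-stimulated genes were higher in 22 of 25 members, 17 of them with each hairpin, by a median of 0.56 with shCTL and 0.17 with shHSF1. Only 5 lay above the other 4 libraries, 20% against 27.9% of all genes.

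The genes furthest above were led by Dio2, the deiodinase that activates thyroid hormone, at 80.8, 4.66 and 2.14 RPKM with shCTL and 30.5, 2.48 and 1.38 RPKM with shHSF1, which was 20.9-fold higher. Sned1, an extracellular matrix protein, measured 53.2, 6.98 and 3.58 RPKM with shCTL and 26.5, 1.51 and 0.897 RPKM with shHSF1. Wisp2, a CCN family matricellular protein, measured 79.7, 3.795 and 4.502 RPKM with shCTL and 10.7, 1.85 and 1.08 RPKM with shHSF1, with a gap far larger in shCTL than in shHSF1. Dhrs3, which reduces retinal, was 9.84-fold higher. Cyp24a1, which breaks down active vitamin D, measured 9.63, 1.64 and 1.54 RPKM with shCTL and 8.45, 0.978 and 0.667 RPKM with shHSF1. Coro6, a coronin of the actin cytoskeleton, measured 33.7, 7.62 and 4.699 RPKM with shCTL and 80.5, 10.6 and 8.88 RPKM with shHSF1. Tle2, a Groucho family corepressor, was 6.702-fold higher, F13a1, a coagulation factor subunit, 6.43-fold higher, and Ngef, a guanine nucleotide exchange factor, 5.704-fold higher. The remaining 5 of these 14 genes were Gpnmb, Tcp11l2, Pyroxd2, AI607873 and Tmem86a, and AI607873 was lowest among them in the library labelled shHSF1 replicate 1 at 3.39 RPKM. None of the 14 overlapped between replicate 1 and the other 4, which the rule for naming them requires.

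Among the 14 genes furthest below, 9 were cell cycle genes described above or their neighbours in function, and others were not. Ctsw, the protease cathepsin W, measured 0.0989, 8.58 and 6.55 RPKM with shCTL and 1.49, 17.97 and 16.03 RPKM with shHSF1, and the shCTL replicate 1 value stood for 3 reads. Ddah1, which breaks down asymmetric dimethylarginine, measured 1.47, 16.2 and 16.5 RPKM with shCTL and 5.69, 26.9 and 32.3 RPKM with shHSF1. Adamts8, a secreted metalloprotease, measured 0.3801, 4.53 and 7.11 RPKM with shCTL and 0.821, 4.805 and 6.89 RPKM with shHSF1. Fabp5, given above, was also in this group.

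**Figure D4:**
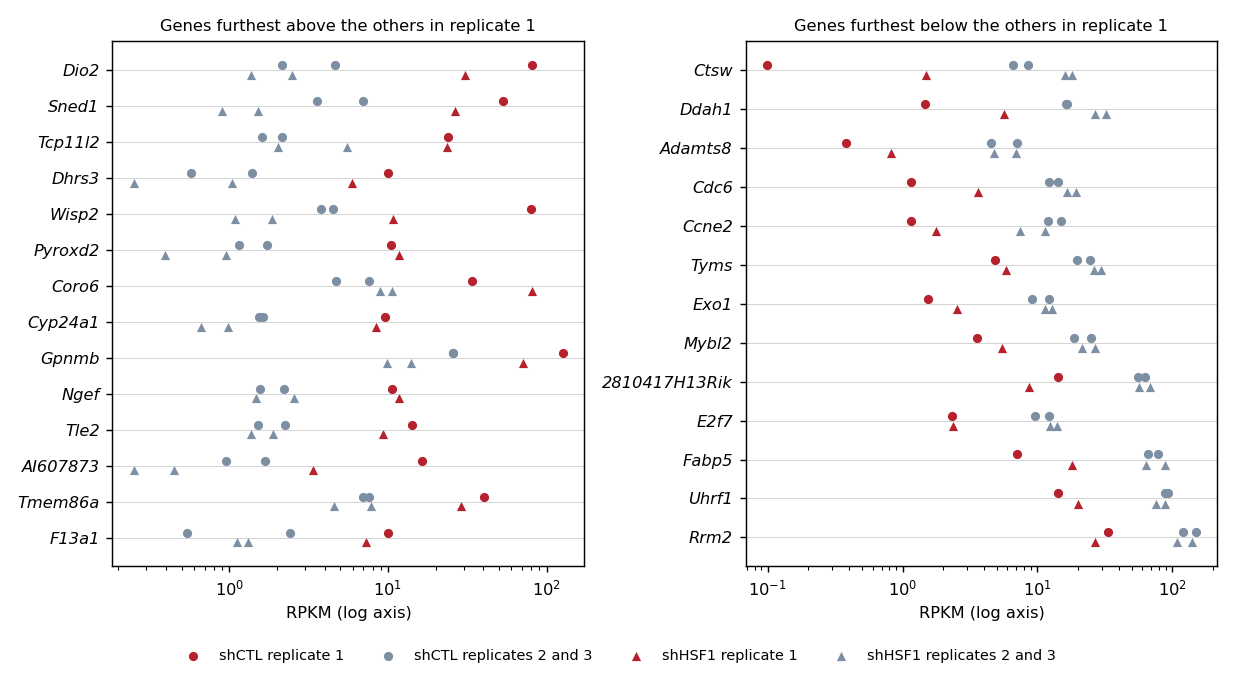
RPKM on a log axis for the 14 genes furthest above and 13 of the 14 furthest below in replicate 1, with replicate 1 in red, replicates 2 and 3 in grey, circles for shCTL and triangles for shHSF1. In every row the red points lie to 1 side of all grey points, as the rule for choosing the genes requires. The red points run from Gpnmb at 127 RPKM down to Ctsw at 0.0989 RPKM, both in shCTL replicate 1.

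Cytoskeletal genes were lower in 20 of 24 members of the actin and SRF list, with a median of -0.36. With each hairpin 19 of 24 were lower, against 3413 of all 11386 genes. Below the other 4 libraries lay 12 of 24, against 18.6% of all genes. Actb, cytoplasmic beta-actin and a common reference gene, measured 816, 1856 and 2178 RPKM with shCTL and 1185, 2111 and 2481 RPKM with shHSF1. Tagln2, an actin-binding transgelin, measured 199.8, 435 and 483 RPKM with shCTL and 149, 421 and 441 RPKM with shHSF1. Replicate 1 was lowest in both. NF-kB targets and chemokines were lower in 27 of 33 members, 18 of them with each hairpin. None lay below the range of the other 4, against 18.6% of all genes. Above that range lay 2, 6.06% against 27.9% of all genes, and 1 passed the 2-fold rule as higher, 3.03% against 2.13%. Ccl2, the monocyte chemokine, measured 3.63, 3.24 and 136 RPKM with shCTL and 9.37, 116 and 227 RPKM with shHSF1, so shCTL replicate 2 was as low as replicate 1. Extracellular matrix genes were split, with 13 higher and 19 lower: Spp1, osteopontin, measured 2644, 978 and 844 RPKM with shCTL and 1566, 1187 and 1031 RPKM with shHSF1, while Mmp3, stromelysin, measured 152, 155 and 272 RPKM with shCTL and 92.98, 380.2 and 349 RPKM with shHSF1. Heat shock chaperones, the class HSF1 is known for, were lower in 20 of 29 members, 17 of them with each hairpin, with a median of -0.15. Hspd1, the mitochondrial chaperonin, measured 251, 616 and 625 RPKM with shCTL and 381, 454 and 622 RPKM with shHSF1, and Hspa8, the constitutive HSC70, measured 1049, 1095 and 943 RPKM with shCTL and 1209, 987 and 1067 RPKM with shHSF1. Immediate early genes, endoplasmic reticulum stress genes, NRF2 genes, epithelial junctions, TGF-beta genes, YAP targets, clock genes, interferon-gamma genes and metallothioneins had medians between -0.19 and 0.22.

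The difference of the gap between the hairpins is the replicate 1 gap of shHSF1 minus that of shCTL. Each hairpin has 1 replicate 1 library, so the spread came only from replicates 2 and 3, with 2 residual degrees of freedom, and a fit must assume that each lone library varies like them. Both lone libraries were chosen for lying apart, replicates 2 and 3 lay much closer to each other, and the calls below compare 2 single libraries, not the hairpins, and support no call on a gene. Limma with Benjamini-Hochberg adjusted p under 0.05 passed 195 genes, 1.71% of those tested, and 2998 genes had an unadjusted p under 0.05. The gap was more positive in shHSF1 in 118 genes, 1.04%, and more negative in 77, 0.676%. A fit with a replicate block, which pairs same-numbered libraries, called 1494. Without shCTL replicate 3 limma called 0 genes, with 2277 at an unadjusted p under 0.05, without shCTL replicate 2 it called 10, without shHSF1 replicate 2 it called 25, and without shHSF1 replicate 3 it called 469. Limma with voom weights on whole reads called 362 with all libraries.

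Tnni2, a fast skeletal troponin I, measured 1.95, 6.06 and 5.74 RPKM with shCTL and 14.1, 1.91 and 1.94 RPKM with shHSF1, a difference of 3.98 on the log2 scale. Syt8, a synaptotagmin whose row at chr7:142434977-142440396 on mm10 lies next to Tnni2 at chr7:142442468-142444405, measured 5.88, 10.96 and 10.2 RPKM with shCTL and 28.7, 3.87 and 4.47 RPKM with shHSF1. Atg9b, an autophagy membrane protein, measured 10.5, 8.16 and 7.17 RPKM with shCTL and 75.1, 5.48 and 5.76 RPKM with shHSF1. In all 3 genes the library labelled shHSF1 replicate 1 was the highest of the 6. Ptgs2, the inducible cyclooxygenase, measured 12.9, 45.7 and 53.6 RPKM with shCTL and 103, 61.6 and 62.6 RPKM with shHSF1. Msln, the surface protein mesothelin, measured 58.9, 76.1 and 75.3 RPKM with shCTL and 282, 79.99 and 67.7 RPKM with shHSF1. Serpine2, a protease inhibitor, had the opposite pattern at 604, 109.8 and 139 RPKM with shCTL and 30.7, 131 and 94.4 RPKM with shHSF1. Matn2, a matrix matrilin, measured 13.4, 5.58 and 5.86 RPKM with shCTL and 2.33, 7.98 and 7.96 RPKM with shHSF1, and Sele, E-selectin, measured 5.47, 1.23 and 1.37 RPKM with shCTL and 0.309, 3.84 and 2.696 RPKM with shHSF1. The row Mir7682 is 58 bases long and its highest value stood for 8 reads.

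Rn45s, the ribosomal RNA precursor, measured 6726, 2987 and 2807 RPKM with shCTL and 1575, 5908 and 4594 RPKM with shHSF1. It took 3.92% of reads in shCTL replicate 1 and 0.919% in the library labelled shHSF1 replicate 1, against 1.64% to 3.45% in the other 4. Lars2, a mitochondrial leucyl-tRNA synthetase, measured 289, 218 and 192 RPKM with shCTL and 85.2, 233 and 230.3 RPKM with shHSF1, and the 123-base row Mir6236 measured 1349, 931 and 847 RPKM with shCTL and 327, 1064 and 1147 RPKM with shHSF1. Both rows were, like Rn45s, highest in shCTL replicate 1 and lowest in the library labelled shHSF1 replicate 1. The part of ribosomal RNA content in the other results was not tested.

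Among the lists, ATF4 targets and amino acid supply genes had the largest median difference. The interaction was above 0 in 33 of 35 members with a median of 1.36. Over all 11386 genes it was above 0 in 6413 and below 0 in 4973, with a median of 0.07. Slc38a2, a neutral amino acid transporter, measured 76.9, 122 and 137 RPKM with shCTL and 128, 89.7 and 91.3 RPKM with shHSF1. Slc6a9, a glycine transporter, measured 9.17, 8.36 and 12.6 RPKM with shCTL and 21.99, 5.46 and 5.24 RPKM with shHSF1. Atf4 measured 75.4, 108 and 247 RPKM with shCTL and 181, 105 and 128 RPKM with shHSF1, and Chac1, which degrades glutathione, measured 3.16, 5.498 and 51.01 RPKM with shCTL and 23.1, 6.77 and 10.9 RPKM with shHSF1. In both genes shCTL replicate 3 was the highest library, and without it the list median was 1.05. Ddit3, the stress factor CHOP, was the 1 member that passed the 2-fold rule, higher in replicate 1 with both hairpins, at 16.2, 4.88 and 8.202 RPKM with shCTL and 34.5, 5.44 and 4.45 RPKM with shHSF1.

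G2/M genes lay on the other side, with 36 of 36 members below 0, against 4973 of all 11386 genes, and a median of -0.87. Ndc80, a kinetochore protein, measured 44.8, 55.4 and 49.2 RPKM with shCTL and 14.4, 53.9 and 47.9 RPKM with shHSF1. Ccnb2, a mitotic cyclin, measured 71.7, 97.7 and 92.1 RPKM with shCTL and 28.6, 107 and 101 RPKM with shHSF1. The median was -0.96 to -0.77 with each of replicates 2 and 3 left out in turn. Ribosome production genes were above 0 in 34 of 35 members, against 6413 of all 11386 genes, with a median of 1.00. Myc itself measured 33.2, 80.3 and 97.7 RPKM with shCTL and 122, 112 and 114 RPKM with shHSF1. G1/S genes had a median of 0.35. Cholesterol genes had a median of 0.52. Medians of lists carry no test.

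**Figure D5:**
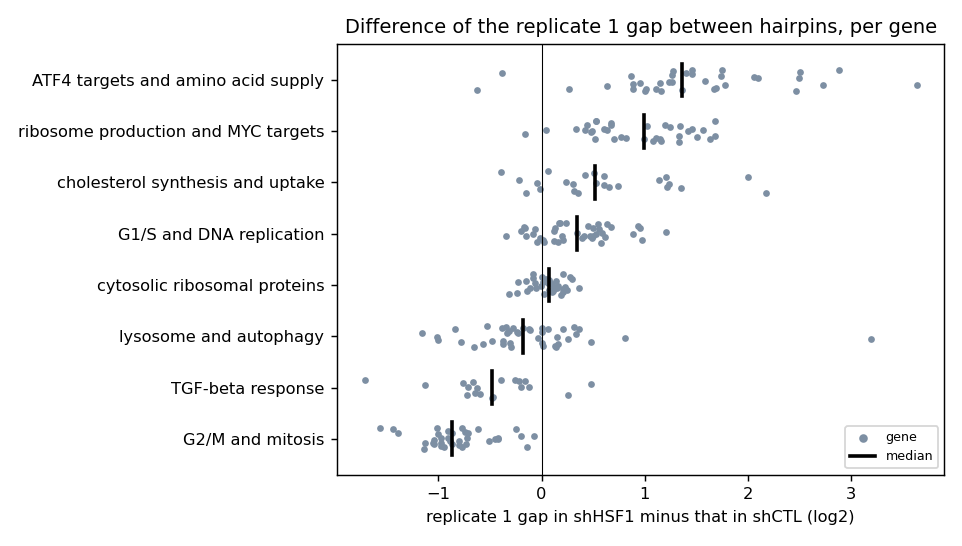
Each point is a gene, placed on the x axis by the replicate 1 gap in shHSF1 minus that in shCTL (log2); bars are medians. The bar of the G2/M list stands at -0.87, and those of ribosome production and ATF4 stand at 1.00 and 1.36.

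Replicates 2 and 3 differed from each other in a shared order too. The first principal component, on which the libraries were chosen, holds that order, so it is not separate from the choice. There replicates 2 and 3 scored 13.4 and 23.4 with shCTL and 18.0 and 30.7 with shHSF1. Over all genes the replicate 3 minus replicate 2 differences of the 2 hairpins correlated at only 0.22. Of the 243 genes lower in replicate 1, 175 were higher in replicate 3 than in replicate 2 with both hairpins, 72.0%, against 29.9% of all genes. Of the 243 higher genes, 174 were lower in replicate 3 than in replicate 2 with both hairpins, 71.6%, against 31.3% of all genes. Replicate 2 thus lay between replicate 1 and replicate 3 in most of these genes, as Mybl2 and Sned1 show. The G1/S list followed that order in 38 of 41 members, whereas 28 of 36 G2/M members were lower in replicate 3 than in replicate 2 with both hairpins. These shares are over genes of the same libraries and describe them.

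Across genes the Spearman coefficient of the gap with GC content was 0.011 over 10977 genes, and with mean RPKM -0.257, so low genes tended to be higher in replicate 1. The 243 higher genes had a median GC content of 52.0% and the 243 lower genes 48.4%, against 49.7% of all genes, and median lengths of 2437 and 2748 bases against 2871. The part of base composition and length in the counts was not tested. Fewer cells with an RNA and less RNA per cell cannot be told apart in these bulk libraries.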

How the data were processed

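Libraries of polyadenylated RNA (KAPA mRNA HyperPrep, from RNeasy extracts) were made from 4T1 cells, 3 per hairpin, per the labels' protocols. STAR and featureCounts were used with build mm10 (per the submitters' processing notes). Their versions, gene annotation and strand setting were not given in the sources used here, and overlapping and near-identical genes may share reads. The authors deposited RPKM for 24421 genes, per the file headers, with gene lengths. Dividing out length gave whole reads for 100% of values within 0.001, so read totals could be computed. Symbols that a spreadsheet had turned into dates, 27 in all, were restored by position. Groups and replicate numbers came from the titles. Whether replicates are separate cultures is not stated, so p-values measure the spread between libraries, which may be technical.

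Values were taken as log2(RPKM + 0.5), so gaps and the 2-fold rule understate the change of low genes. This was done for the 11386 genes that reached 0.5 RPKM in no fewer than 3 of the 6 libraries, while 13035 were not tested. Folds printed for single genes are instead ratios of mean RPKM, the 2 replicate 1 libraries against the other 4, with nothing added. They pool both hairpins, so the library with the higher value weighs more, and they can exceed the fitted gap. Fits used limma 3.58.1 in R 4.3.3 with a variance trend: hairpin and replicate 1 as terms for the gap and its standard error, and their interaction for the difference of the gap between hairpins, with Benjamini-Hochberg adjustment at 0.05 over all genes. Named genes were Hsf1, the 14 with the largest shared gap each way among genes that passed the 2-fold rule with at least 5 RPKM on the higher side, the 3 most abundant members and the member with the largest shared gap of each list, and up to 6 genes each way from the interaction; a further few list members (Mki67, Insig1, Neu1, Chac1, Ddit3, Cdt1 and the list members past the interaction test) were added once values were known. Some genes that the rule names are not reported here. The libraries, gene lists, motifs and tests were chosen with earlier results of these data known.

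Same-numbered samples deviated from their group means together, with correlations of 0.58, 0.18 and 0.68, all over 0.1, so a replicate block was tried. The 3 deviations of a group sum to 0, so the replicate 1 gap also enters those of replicates 2 and 3. The replicate 3 minus replicate 2 difference, which leaves replicate 1 out, correlated at 0.22 between the hairpins. Differently numbered samples correlated too, at 0.51 for shCTL replicate 2 with shHSF1 replicate 3 and 0.24 for shCTL replicate 3 with shHSF1 replicate 2, above the 0.18 of the second pair, and the labels state no pairing. A gene of 2 kb had a floor of 3 reads at 0.041 to 0.063 RPKM, which covers counting error only. Between replicates of a hairpin the chi-square per degree of freedom was 20.2 to 217, so no library was a copy of another. Promoters came from RefSeq tables on GRCm38.p6, matched to 8502 tested genes.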

Additional observations from a re-analysis of the deposited data

Results flagged for a closer look

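In the 14 genes given here the replicate 1 gap of shHSF1 minus that of shCTL stood out in the limma fit, but each value compares 2 single libraries, chosen for lying apart, and supports no call on the hairpins. The Hsf1 level of the library labelled shHSF1 replicate 1 also goes against its label, while its score on the second principal component does not. The gap was more positive in shHSF1 for Mir7682 (a log2 difference of 5.18), Tnni2 (3.98), Syt8 (3.44), Atg9b (3.19), Ptgs2 (2.62), Msln (2.29), Gas5 (1.95) and Krt7 (1.37). It was more negative for Serpine2 (-4.13), Sele (-3.94), Rn45s (-2.94), Matn2 (-2.75), Mir6236 (-2.36) and Lars2 (-1.93). Krt7, a keratin of simple epithelia, measured 196, 373 and 345 RPKM with shCTL and 481, 359.5 and 324 RPKM with shHSF1. The library labelled shHSF1 replicate 1 was the highest of the 6 for all 8 genes of the first group.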

How the results depend on the processing

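Counts of genes apart in replicate 1 (243 higher, 243 lower) stayed within 1.5 times under other pseudocounts, filters and scalings, and were 191 to 324 higher and 215 to 283 lower with each of replicates 2 and 3 left out. At 1.5-fold they were 952 and 704, at 4-fold 19 and 14, and voom on whole reads gave 389 higher. The interaction count (195) was 899 with no filter on low values, 58 with no variance trend, 362 with voom and 0 to 469 with 1 library left out. With the replicate number as a block, the paired fit called 1494 genes, on 1 residual degree of freedom before moderation. The causes of these shifts were not tested. Of 420 list medians recomputed, 29 changed sign, 11 of them with a replicate 1 library left out and 8 under another scaling; with 1 library left out, hypoxia ranged from -0.503 to 0.0091, its sign changing without shHSF1 replicate 1, and extracellular matrix from -0.207 to 0.0123, changing without shCTL replicate 1. Of 2115 single-gene gaps, 59 changed sign, with Msln between -0.36 (without shHSF1 replicate 1) and 1.93, Scd2 between -0.801 and 0.0309 (without shCTL replicate 1), Hspa8 at -0.043 under quantile normalization, and Csnk1d at -0.038 and Ift43 at -0.047 after median-of-ratios scaling. The 12 named interaction genes kept their sign in 166 recomputed values and missed the threshold in 23. Leaving out a replicate 1 library gives no shared count and no interaction, and these were not run.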
